A study of Mus musculus with 6 samples.

Results

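Semaphorins, plexins and neuropilins were taken from the deposited expression table as the protein-coding genes whose names belong to the semaphorin classes 3 to 7, the plexin families A to D or the neuropilins. This rule used names alone and found 31 of 54532 genes: 20 semaphorins, 9 plexins and 2 neuropilins. Values come from Prx1-lineage mesenchymal stromal cells of the mouse, which were grown from collagenase-treated chips of femur and tibia and sorted for the fluorescent Cre reporter. The Zeb1Prx1 group had the genotype Prx1-Cre+; ROSA-YFP; Zeb1fl/fl, and the WT group Prx1-Cre+; ROSA-YFP; Zeb1wt/wt, with 3 untreated libraries each; all mice thus carried the Cre driver of limb mesenchyme and the reporter. Age and sex are not stated, and nothing says whether the libraries came from separate mice, so the spread behind each p-value may be technical and covers these samples alone.

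Semaphorins are guidance proteins that steer axons, vessels and migrating cells and that act in bone on both osteoblasts and osteoclasts. Class 3 members are secreted, and most bind neuropilins, which pair with A-type plexins to carry the signal; Sema3e binds plexin D1 directly. Class 4, 5 and 6 members span the membrane, class 7 is held by a lipid anchor, and these bind plexins without a neuropilin. In bone, Sema4d made by osteoclasts restrains osteoblasts through plexin B1, Sema3a acts through neuropilin 1 to favour osteoblasts over osteoclasts, and plexin A1 works with Trem2 and Tyrobp in osteoclasts and dendritic cells. Zeb1 is a zinc-finger protein that binds E-box sequences and mostly represses transcription.

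The libraries held 14724357 to 18354894 fragments recovered from the table. FPKM here are fragments scaled to gene length and to a factor of each library that is not its fragment total. Zeb1 itself had 1.92, 1.59 and 2.84 FPKM in the Zeb1Prx1 libraries, against 6.61, 10.3 and 7.12 FPKM in WT. Prrx1, the gene whose regulatory element drives the Cre, had 18.9 to 22.6 FPKM in Zeb1Prx1 and 18.1 to 30.5 in WT, and the collagen gene Col1a1 had at least 1432 FPKM in each library, but macrophage transcripts were abundant too. The median FPKM of 22 macrophage markers was 120 to 129 in Zeb1Prx1 and 160 to 189 in WT, with 18 of the 22 log2 changes below 0. Endothelial, lymphocyte and neutrophil lists had medians of at most 0.0779 FPKM, and Pecam1 and Cdh5, which define endothelium, stayed at or under 0.116 FPKM. Osteoclast markers had medians of 1.59 to 2.30 FPKM in Zeb1Prx1 and 0.996 to 2.52 in WT. The inactive-X transcript Xist had 1.47, 0.00309 and 12.6 FPKM in Zeb1Prx1 and 26.8 to 40.4 in WT, so the sex of the mice and the genotype cannot be told apart.

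Most of the family's RNA in these cells came from receptors. Plexins and neuropilins together made up 73.6%, 64.3% and 67.4% of the summed FPKM of all 31 genes in the Zeb1Prx1 libraries, against 73.5%, 77.0% and 74.4% in WT. By mean FPKM over the 6 libraries, Plxnb2 stood first (89.4), followed by Nrp2 (45.4), Plxnd1 (35.9), the ligand gene Sema4d (33.3), Plxna1 (32.7), Plxnc1 (18.03), Nrp1 (16.7) and Sema3c (16.0). The other 23 genes averaged at most 8.26 FPKM, the value of Sema4a. Genes were tested where 3 or more of the 6 libraries reached 1 FPKM, as they did for 17 genes: 9 semaphorins, 6 plexins and both neuropilins. The plot of levels by library shows these 17.

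**Figure D1:**
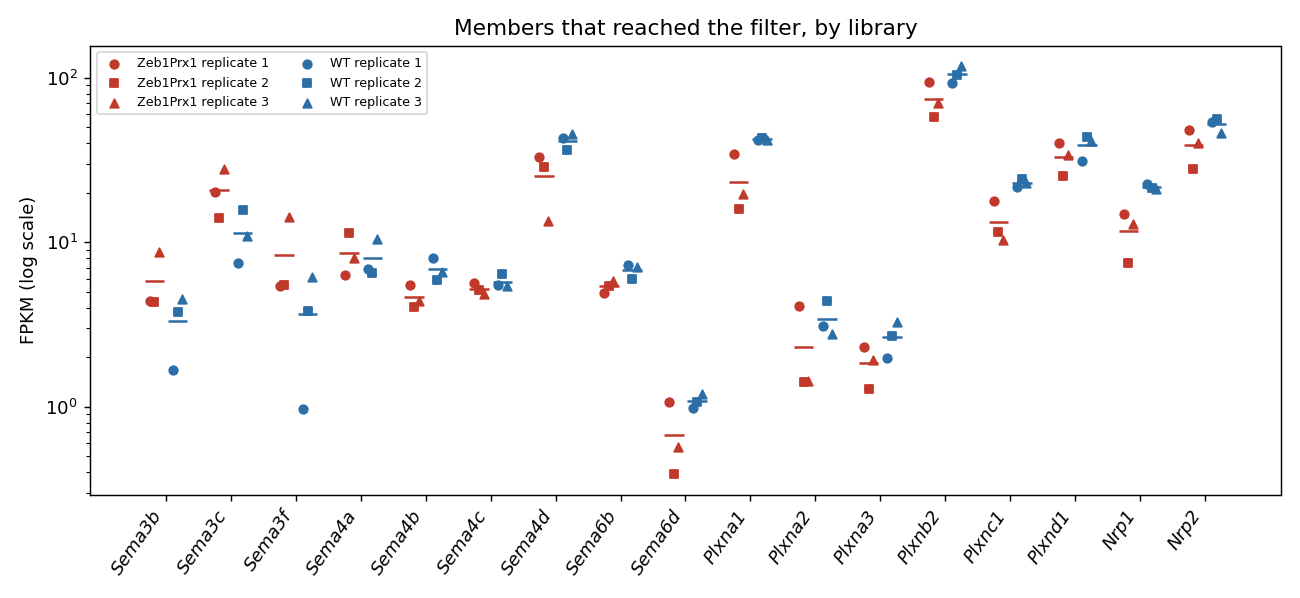
FPKM on a log scale of the 17 genes that reached the filter, with Zeb1Prx1 libraries in red and WT libraries in blue, a marker shape for each replicate and a bar at each mean. For Plxna1, Plxnc1, Nrp1, Sema4b, Sema4d and Sema6b each Zeb1Prx1 library lies below each WT library; Plxnb2 is the most abundant in the mean.

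Among the 17 tested genes, receptor genes were lower and class 3 ligand genes higher in the Zeb1Prx1 mean, and no single gene passed the test. Limma on log2(FPKM + 1), fitted over all 12534 genes above the filter with Benjamini-Hochberg adjustment, called 0 of the 17 genes (adjusted p = 0.273 to 0.874), as it called 0% of all genes; voom on the recovered fragments called 0 as well. The log2 change, Zeb1Prx1 minus WT, was below 0 for all 8 tested receptor genes, for 3 of 4 class 4 and both class 6 semaphorins, and above 0 for all 3 tested class 3 semaphorins. The median was -0.50 for plexins, -0.66 for the 2 neuropilins, -0.30 for class 4, -0.31 for class 6 and 0.81 for class 3, against 0.02 over all tested genes. Unadjusted p was under 0.05 for 6 genes, against 15.1% of all tested genes: 5 genes on the lower side (Plxna1, Plxnc1, Nrp1, Sema4b and Sema4d) and 1 on the higher (Sema3c), where the shares of all tested genes were 6.98% and 8.15%. With library weights, limma called 3 of the 17 genes, Nrp1, Plxna1 and Plxnc1 (adjusted p = 0.0487 to 0.0498), all lower, and 3.57% of all genes; these weights give Zeb1Prx1 replicate 2 the least say and replicate 3 the most. The genotypes did not overlap for 6 of the 17 genes, all lower in Zeb1Prx1; among all tested genes 11.8% were lower and 12.6% higher without overlap.

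**Figure D2:**
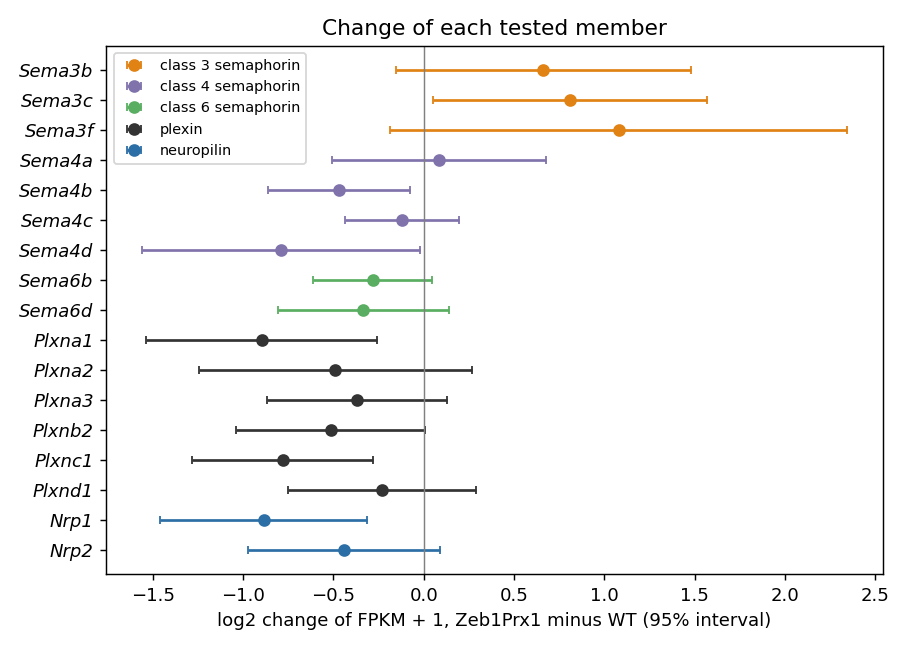
Log2 change of FPKM + 1, Zeb1Prx1 minus WT, of the 17 tested genes with 95% intervals from limma, coloured by class. Plexins, neuropilins, and most class 4 and class 6 genes lie left of 0 and class 3 genes right of 0; 6 intervals exclude 0 before adjustment and none of the genes passed after it.

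Gene length moved with these differences. The 31 genes are long, with a median length of 7679 bases in the table, and 11 of the 17 tested ones, all 8 receptors among them, exceeded 7 kb. Of all 2568 tested genes over 7 kb, 76.1% had a log2 change below 0, with a median of -0.20, and 23.3% were lower without overlap against 3.15% higher. Tested genes under 2 kb had a median of 0.27. The shift was largest in Zeb1Prx1 replicate 2, where the median log2 difference from the mean library was -0.33 for genes over 7 kb and 0.43 for those under 2 kb. With this length trend removed from each library, the log2 changes were -0.68 for Nrp1, -0.71 for Plxna1, -0.61 for Plxnc1, -0.36 for Plxnb2, -0.21 for Plxna3, -0.19 for Nrp2, -0.16 for Plxna2 and -0.08 for Plxnd1, and those of the class 3 genes were 0.95 for Sema3c, 1.14 for Sema3f and 0.70 for Sema3b. This alternative was chosen after seeing the data.

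**Figure D3:**
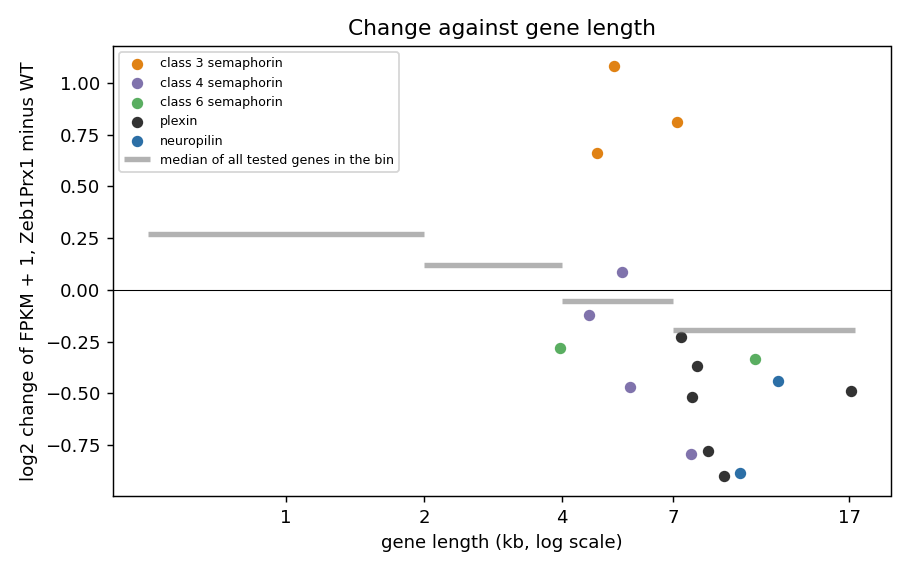
Log2 change of FPKM + 1, Zeb1Prx1 minus WT, against gene length on a log scale for the 17 tested genes, with grey bars at the median of all tested genes in 4 length ranges. The grey medians descend to -0.20 above 7 kb; the 8 receptor genes lie below that bar, and the 3 class 3 genes lie above the bars of their lengths.

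The co-receptor Nrp1, which binds class 3 semaphorins and VEGF (chromosome 8, 128358604 to 128503363, mm10), had 14.8, 7.44 and 12.8 FPKM in Zeb1Prx1 and 22.6, 21.4 and 21.04 FPKM in WT. The WT libraries lay within a narrow band, and each mutant library was below it. The mean was 0.540-fold (11.7 ± 3.82 against 21.7 ± 0.791, SD, n = 3 each), and the log2 change was -0.89 (SE 0.24, limma adjusted p = 0.273). Its relative Nrp2, which prefers Sema3f and VEGF-C (chromosome 1, 62703285 to 62818695), had 48.1, 27.9 and 40.3 FPKM in Zeb1Prx1, against 53.8, 56.1 and 46.0 in WT. These overlapped, with a mean ratio of 0.746 and a log2 change of -0.44 (95% interval -0.97 to 0.09). Both are known from endothelium; 9 of the 10 endothelial markers stayed under the filter here, and the tenth, Vwf, had 1.48, 1.26 and 0.905 FPKM in Zeb1Prx1 and 2.22, 2.64 and 1.76 in WT, lower without overlap. Its part in the neuropilin levels was not tested.

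Plxna1, the usual signalling partner of neuropilins (chromosome 6, 89316314 to 89362620), had 34.3, 16.0 and 19.6 FPKM in Zeb1Prx1 and 41.5, 42.8 and 41.9 FPKM in WT. The WT libraries again lay close together, and each mutant library was lower. The means were 23.3 ± 9.68 and 42.1 ± 0.667 FPKM (SD, n = 3 each), 0.554-fold, with a log2 change of -0.90 (SE 0.27, limma adjusted p = 0.275). An antisense transcript, Gm26811, shares 970 bases with its exons, 10.7% of them, and had a mean of 0.286 FPKM. Plxna2 had 4.08, 1.42 and 1.44 FPKM in Zeb1Prx1 against 3.10, 4.39 and 2.76 in WT, which overlapped; without Zeb1Prx1 replicate 1 its ratio was 0.419 instead of 0.678. Plxna3, a partner of Nrp2 that lies on the X chromosome, had 2.29, 1.27 and 1.93 FPKM in Zeb1Prx1 against 1.98, 2.68 and 3.29 in WT, also overlapping. Plxna4 stayed under the filter, with 14 to 60 fragments per Zeb1Prx1 library and 40 to 96 per WT library.

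Plxnc1, the receptor of the lipid-anchored Sema7a (chromosome 10, 94790866 to 94944835), had 17.9, 11.5 and 10.3 FPKM in Zeb1Prx1 and 21.5, 24.2 and 22.8 FPKM in WT. No mutant library reached the WT range. The means were 13.2 ± 4.06 and 22.8 ± 1.31 FPKM (SD, n = 3 each), 0.579-fold, with a log2 change of -0.78 (SE 0.21, limma adjusted p = 0.273). Plxnd1, the receptor of Sema3e, had 40.1, 25.4 and 33.7 FPKM in Zeb1Prx1 against 31.3, 43.6 and 41.2 in WT, an overlap with a mean ratio of 0.855. Plxnb2, which binds class 4 semaphorins, had 94.3, 57.9 and 70.1 FPKM in Zeb1Prx1 and 92.8, 104 and 117 in WT. Only the first mutant library reached the WT range, and the log2 change was -0.52 (95% interval -1.04 to 0.01).

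The receptors varied together among the mutant libraries. Zeb1Prx1 replicate 1 had the highest mutant value for all 8 tested receptor genes, and replicate 2 the lowest for 7 of them, Plxnc1 being the exception. Summed over the 9 plexins, the FPKM was 194, 114 and 140 in Zeb1Prx1 and 193, 223 and 230 in WT. Without Zeb1Prx1 replicate 2, the library with the strongest length shift, the log2 change was -0.62 for Nrp1, -0.68 for Plxna1, -0.71 for Plxnc1, -0.35 for Plxnb2, -0.31 for Plxna2, -0.23 for Nrp2, -0.22 for Plxna3 and -0.06 for Plxnd1. Macrophages express several of these receptors. Of the 22 macrophage markers 8 were lower without overlap and 0 higher, where the shares of all tested genes were 11.8% and 12.6%. From these 8, 3 are given here, chosen after their values were seen. Adgre1 had 164, 119 and 117 FPKM in Zeb1Prx1 against 215 to 250 in WT. Csf1r had 376, 342 and 252 against 453 to 564, and Cd68 273, 261 and 248 against 377 to 389. Lyz2, the most abundant of the list, overlapped (7034, 16368 and 9156 FPKM in Zeb1Prx1, 8118 to 10490 in WT). Lyz2, Tyrobp, Ctss and Aif1 were the 4 markers with a log2 change above 0 (0.09 to 0.13). These 4 are 667 to 1532 bases long, and all tested genes under 2 kb had a median of 0.27. Also under 2 kb, Cd68, Fcgr3, Cd14, C1qa, C1qb and C1qc were below 0. Apart from Cd68, the markers lower without overlap are 3238 (Adgre1) to 18313 (Ptprc) bases long. The part of gene length in this list was not tested. With the mean of the macrophage list as a covariate, the log2 change was -1.41 for Nrp1, -1.12 for Plxna1, -0.83 for Nrp2 and -0.69 for Plxnc1. It was -0.68 for Plxnb2, -0.57 for Plxna3, -0.53 for Plxna2 and -0.46 for Plxnd1. Standard errors ran from 0.29 (Nrp1) to 0.53 (Plxna2). The mean log2 level of that list was 6.52 to 7.04 in Zeb1Prx1 and 7.09 to 7.18 in WT. This covariate thus did not overlap between genotypes, and the fit cannot separate it from genotype. In these bulk libraries fewer cells of a type and less RNA per cell cannot be told apart, and the part of the macrophage transcripts in these differences was not tested further.

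Plxnb1 ran the other way. This gene of the Sema4d receptor (chromosome 9, 109095389 to 109119917) had 156, 77 and 414 fragments in the Zeb1Prx1 libraries, or 1.01, 0.445 and 2.83 FPKM, against 61, 37 and 35 fragments in WT, or 0.347, 0.251 and 0.238 FPKM. Each mutant library was above each WT library, and the mean was 5.12-fold higher (2.62-fold without Zeb1Prx1 replicate 3). It stayed under the filter, so it has no value in the main fit; without a filter its log2 change was 0.81 (SE 0.35, limma adjusted p = 0.513). Among protein-coding genes under the filter with a signal, 6.47% were higher and 5.01% lower in Zeb1Prx1 without overlap. Over the mutant libraries, 11 of the 12 chondrocyte markers ran in the same order as Plxnb1, with replicate 3 highest and replicate 2 lowest, and Matn1 did not. Col2a1, the main cartilage collagen, had 383, 60.0 and 1175 FPKM in Zeb1Prx1 and 1.17 to 5.32 in WT. Their part in the level of Plxnb1 was not tested. Plxnb3, the X-linked receptor of Sema5a, had 22, 34 and 25 fragments in Zeb1Prx1 and 48, 34 and 44 in WT, and after scaling was lower without overlap (0.251 ± 0.04 against 0.395 ± 0.0509 FPKM, SD, n = 3 each).

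The promoters of these receptors are shown because Nrp1 and Plxnc1 were lower and Plxnb1 higher in each mutant library, and because Zeb1 is known to bind the E-box CACCTG. Each is 300 bases of RefSeq sequence (build GRCm38.p6), from 250 bases before to 50 after the start that RefSeq gives, written along the gene's strand. Nrp1 is read from chr8:128358823-128359122 (+), Plxnc1 from chr10:94944796-94945095 (-) and Plxnb1 from chr9:109095186-109095485 (+). Sema4f, from chr6:82939720-82940019 (-), is added because it held 2 such E-boxes, 110 and 89 bases before the start; capitals mark CACCTG or its reverse complement CAGGTG.
Nrp1: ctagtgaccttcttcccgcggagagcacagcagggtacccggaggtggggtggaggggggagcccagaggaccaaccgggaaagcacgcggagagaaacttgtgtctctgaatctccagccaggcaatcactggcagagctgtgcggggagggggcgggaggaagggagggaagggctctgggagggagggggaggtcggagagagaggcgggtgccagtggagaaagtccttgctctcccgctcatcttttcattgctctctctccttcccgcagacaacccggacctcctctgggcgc
Plxnc1: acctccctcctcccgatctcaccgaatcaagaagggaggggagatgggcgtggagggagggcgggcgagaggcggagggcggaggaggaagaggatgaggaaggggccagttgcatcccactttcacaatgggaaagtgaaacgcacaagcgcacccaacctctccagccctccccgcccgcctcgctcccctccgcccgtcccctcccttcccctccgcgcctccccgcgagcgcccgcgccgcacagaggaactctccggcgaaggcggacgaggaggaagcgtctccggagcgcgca
Plxnb1: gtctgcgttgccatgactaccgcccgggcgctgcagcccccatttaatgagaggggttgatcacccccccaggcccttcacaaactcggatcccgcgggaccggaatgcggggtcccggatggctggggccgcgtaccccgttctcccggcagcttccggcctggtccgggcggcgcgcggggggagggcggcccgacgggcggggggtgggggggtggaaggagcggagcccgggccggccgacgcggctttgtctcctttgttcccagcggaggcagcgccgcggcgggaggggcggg
Sema4f: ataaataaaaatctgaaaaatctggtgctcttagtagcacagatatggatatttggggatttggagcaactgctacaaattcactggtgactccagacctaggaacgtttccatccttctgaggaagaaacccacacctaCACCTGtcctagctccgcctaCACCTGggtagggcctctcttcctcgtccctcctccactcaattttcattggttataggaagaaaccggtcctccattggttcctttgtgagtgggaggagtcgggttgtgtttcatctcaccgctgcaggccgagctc
The RefSeq start used for Nrp1 lies 469 bases inside the gene as the expression table places it, so this window covers none of the sequence before the table's start; for Plxnb1 the start lies 47 bases inside. These letters were absent from the windows of Nrp1, Plxnc1 and Plxnb1. The table held promoters of 26 of the 31 genes; Plxna1, Plxna4, Sema3b, Sema3f and Sema6a had none in it. Of the 26 genes, 5 (Sema4c, Sema6d, Sema3d, Sema4f and Plxnb2) had the motif on either strand in at least 1 window, or 19.2%, against 22.6% of all 27025 genes in the table. Sema4f itself, a class 4 member known from neurons, had 59, 28 and 31 fragments in Zeb1Prx1 and 46, 14 and 11 in WT, or 0.694, 0.294 and 0.384 against 0.475, 0.172 and 0.135 FPKM. The genotypes overlapped, and the mean ratio of 1.75 became 2.97 without WT replicate 1.

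Among ligands, the secreted class 3 had 3 of its 7 genes above the filter. Sema3c, known from outflow tract and vessel development (chromosome 5, 17574281 to 17730268), was the most abundant of them, with 20.1, 13.9 and 27.8 FPKM in Zeb1Prx1 and 7.48, 15.7 and 10.9 FPKM in WT. The second mutant library lay within the WT range. The means were 20.6 ± 6.93 and 11.4 ± 4.13 FPKM (SD, n = 3 each), 1.81-fold, with a log2 change of 0.81 (SE 0.32, limma adjusted p = 0.319). Adding the macrophage list to the fit, where it cannot be separated from genotype, gave a log2 change of 0.25 (SE 0.44).

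Sema3f, a ligand of Nrp2 (chromosome 9, 107681500 to 107710475), had 5.44, 5.51 and 14.2 FPKM in Zeb1Prx1 and 0.967, 3.80 and 6.16 FPKM in WT. The ranges overlapped, since the third WT library exceeded 2 mutant libraries. The log2 change was 1.08 (SE 0.53, limma adjusted p = 0.368), and the mean ratio of 2.30 was 1.501 when Zeb1Prx1 replicate 3 was left out and 3.52 when WT replicate 3 was. Its neighbour Sema3b, 72.3 kb away on the same chromosome (107597674 to 107609229), had 4.36, 4.36 and 8.70 FPKM in Zeb1Prx1 and 1.68, 3.74 and 4.53 FPKM in WT. With the macrophage list in the fit, the log2 change was 0.50 for Sema3f (SE 0.84) and, against 0.66 without it, 0.23 for Sema3b (SE 0.53). Sema3b, Sema3f and Sema3c were all 3 lowest in WT replicate 1 and highest in Zeb1Prx1 replicate 3. Between Sema3b and Sema3f lie Gnai2, a G protein gene with 185 to 237 FPKM in Zeb1Prx1 and 204 to 217 in WT, and Gnat1 and Slc38a3, which stayed at or under 14 fragments per library.

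**Figure D4:**
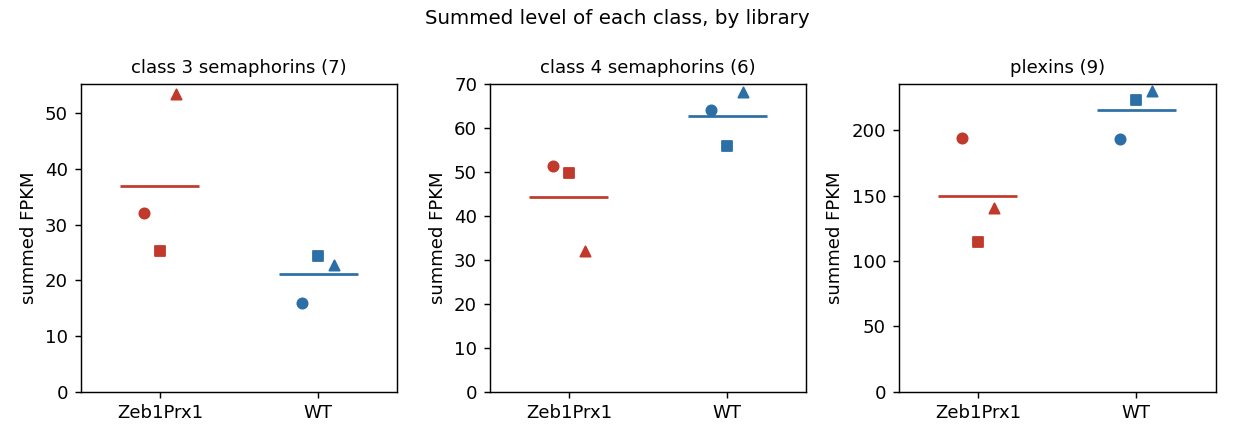
Summed FPKM of the 7 class 3 semaphorins, the 6 class 4 semaphorins and the 9 plexins in each library, with Zeb1Prx1 left of WT, a marker shape for each replicate and a bar at each mean. The Zeb1Prx1 sums all lie above the WT sums for class 3, narrowly (25.3 against 24.4), although each of its 7 genes overlapped between genotypes. For class 4, where Sema4d is the largest part of each sum, they all lie below the WT sums. The plexin sum of Zeb1Prx1 replicate 1 (194) lies just above the lowest WT sum (193).

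Summed over class 3, the FPKM was 32.2, 25.3 and 53.5 in Zeb1Prx1 and 16.0, 24.4 and 22.8 in WT. The class 4 sums were 51.5, 49.8 and 32.03 in Zeb1Prx1 and 64.3, 55.9 and 68.4 in WT. In each library Sema3c was the largest part of the class 3 sum and Sema4d of the class 4 sum. Class 3 made up 34.9%, 30.5% and 57.0% of the semaphorin FPKM in Zeb1Prx1, against 16.4%, 27.2% and 22.4% in WT. The summed FPKM of 12 chondrocyte markers was 558, 151 and 2548 in Zeb1Prx1 and 14.5, 205 and 155 in WT. Zeb1Prx1 replicate 3 and WT replicate 1 were thus at the ends of the class 3 and chondrocyte sums. The median FPKM of these markers was 3.54, 1.12 and 36.5 in Zeb1Prx1 and 0.214, 0.247 and 0.300 in WT, far below the sums. Skeletal stroma markers summed to 5424, 3042 and 5716 FPKM in Zeb1Prx1, against 2376, 3378 and 3324 in WT, with the same libraries at the ends. Col1a1 made up the largest part of these sums. It too was lowest in WT replicate 1, but highest in Zeb1Prx1 replicate 1 (3368 FPKM, against 2069 in replicate 3). Of 11 tested stroma markers 7 log2 changes were above 0 and 4 below, with a median of 0.19. Osteoblast markers summed to 2843, 4509 and 2930 FPKM in Zeb1Prx1, against 1849, 4165 and 4036 in WT, again lowest in WT replicate 1. Of 7 tested osteoblast markers all 7 log2 changes were above 0, with a median of 1.06, and limma called 0. Without overlap 2 were higher and 0 lower, where the shares of all tested genes were 12.6% and 11.8%. The part of these cell types in the class 3 levels was not tested.

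The remaining class 3 genes stayed under the filter, and WT replicate 1 set much of their spread. Sema3a, the collapsin of axon guidance and a regulator of bone mass (chromosome 5, 13125414 to 13602565), had 0.848, 0.676 and 0.581 FPKM in Zeb1Prx1 and 3.80, 0.582 and 0.700 FPKM in WT. The mean ratio was 0.414, and 1.10 without WT replicate 1. Sema3e, the ligand of plexin D1 that lies 423 kb from it, had 0.657, 0.430 and 1.57 FPKM in Zeb1Prx1 and 1.90, 0.266 and 0.0912 in WT; its ratio of 1.18 was 4.96 when WT replicate 1 was left out and 0.722 when Zeb1Prx1 replicate 3 was. Sema3d, 536 kb on the other side of Sema3a, had 20 to 70 fragments per Zeb1Prx1 library and 27 to 44 per WT library. Sema3g, known from vessels, had 19, 9 and 33 fragments in Zeb1Prx1 and 0, 8 and 7 in WT, where 3 fragments are the limit that a count of 0 allows. Its mean ratio of 3.94 was 2.58 without Zeb1Prx1 replicate 3 and 2.62 without WT replicate 1, and the second mutant library overlapped with WT.

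**Figure D5:**
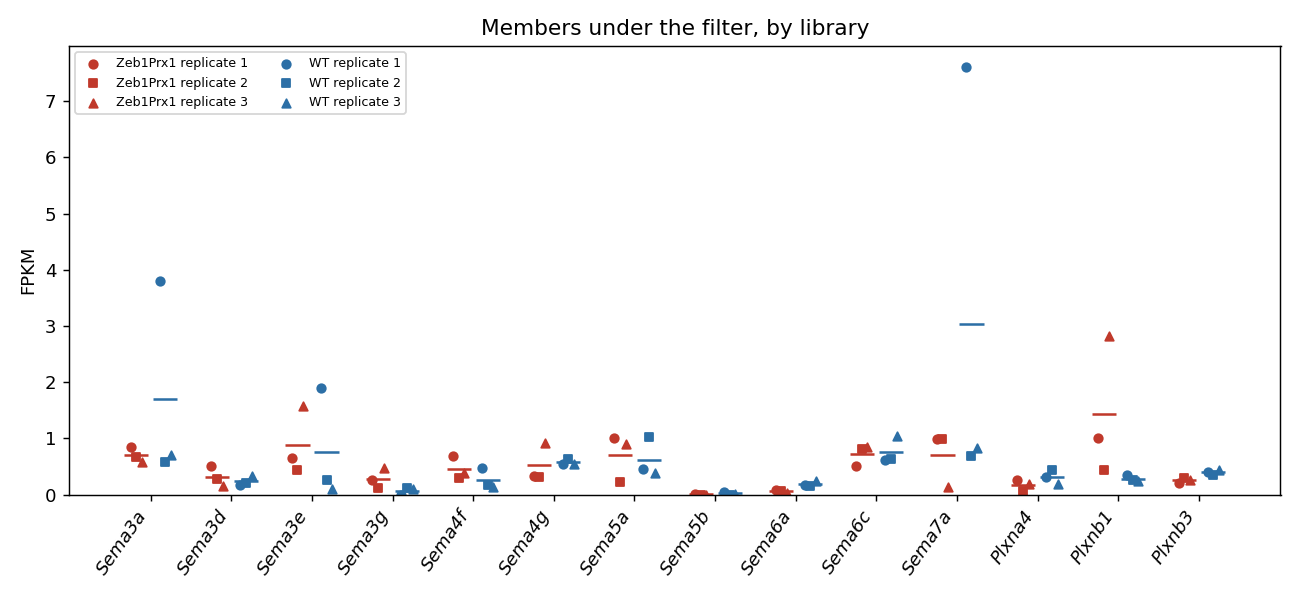
FPKM on a linear scale of the 14 genes under the filter, with Zeb1Prx1 libraries in red and WT libraries in blue, a marker shape for each replicate and a bar at each mean. Sema3a and Sema7a are raised in WT replicate 1 (3.80 and 7.60 FPKM), and Plxnb1 in Zeb1Prx1 replicate 3 (2.83 FPKM).

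Class 4 was led by Sema4d, known as the leukocyte semaphorin CD100 (chromosome 13, 51685529 to 51793747). It had 33.1, 28.7 and 13.4 FPKM in Zeb1Prx1 and 42.9, 36.3 and 45.2 FPKM in WT. Each mutant library was lower than each WT library, and the third was the lowest by a wide step. The means were 25.1 ± 10.3 and 41.5 ± 4.63 FPKM (SD, n = 3 each), 0.604-fold, with a log2 change of -0.79 (SE 0.33, limma adjusted p = 0.325) that was -0.41 without Zeb1Prx1 replicate 3. The mean of the macrophage list did not overlap between genotypes, and adding it to the fit gave a log2 change of -0.11 (SE 0.40). Among the mutant libraries 11 of the 22 macrophage markers were lowest in replicate 3, 3 in replicate 2 and 8 in replicate 1. The highest value lay in replicate 3 for 3 markers, in replicate 2 for 11 and in replicate 1 for 8. The part of macrophage transcripts in the Sema4d level was not tested.

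Sema4b, which carries a cytoplasmic PDZ-binding tail (chromosome 7, 80186841 to 80226527), had 5.48, 4.06 and 4.41 FPKM in Zeb1Prx1 and 8.04, 5.89 and 6.56 FPKM in WT. The mutant libraries lay below the WT range, with a log2 change of -0.47 (SE 0.17, limma adjusted p = 0.298). Sema4a, which acts in immune cells and retina, had 6.31, 11.3 and 8.05 FPKM in Zeb1Prx1 and 6.87, 6.53 and 10.5 in WT. It overlapped throughout, with a log2 change of 0.09 (95% interval -0.51 to 0.68) that was -0.07 once each library's FPKM were rescaled to the same sum. Sema4c, a ligand of plexin B2, had 5.62, 5.11 and 4.85 FPKM in Zeb1Prx1 and 5.47, 6.37 and 5.39 in WT, with a log2 change of -0.12 (95% interval -0.44 to 0.19). Sema4g stayed under the filter, with 26, 27 and 68 fragments in Zeb1Prx1 and 48, 48 and 41 in WT; its ratio of 0.899 was 0.555 without Zeb1Prx1 replicate 3.

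Class 6 semaphorins, transmembrane ligands of A-type plexins, were low. Sema6b had 4.94, 5.44 and 5.79 FPKM in Zeb1Prx1 and 7.31, 5.93 and 7.11 FPKM in WT. The groups did not overlap, although the highest mutant and the lowest WT library differed little, and the log2 change was -0.28 (SE 0.14, limma adjusted p = 0.365). Sema6d, a ligand of plexin A1, had 1.06, 0.389 and 0.570 FPKM in Zeb1Prx1 and 0.983, 1.07 and 1.20 in WT, with an overlap in the first mutant library. Sema6a (chromosome 18) had 11, 10 and 4 fragments in Zeb1Prx1 and 26, 21 and 32 in WT, or 0.0570 ± 0.0247 against 0.185 ± 0.0455 FPKM (SD, n = 3 each). Without a filter its log2 change was -0.16 (SE 0.05, limma adjusted p = 0.438). Sema6c had 0.503 to 0.849 FPKM in Zeb1Prx1 and 0.617 to 1.04 in WT.

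Sema7a, a lipid-anchored ligand of plexin C1 and integrins (chromosome 9, 57940112 to 57962865), had 52, 59 and 7 fragments in Zeb1Prx1 and 459, 35 and 42 in WT. The first WT library alone stood high, at 7.60 FPKM against 0.690 and 0.829 in the other WT libraries and 0.981, 0.993 and 0.139 in Zeb1Prx1. The mean ratio of 0.232 became 0.927 once WT replicate 1 was left out. Class 5 members carry thrombospondin repeats. Sema5a overlapped between genotypes, with 1.01, 0.217 and 0.904 FPKM in Zeb1Prx1 and 0.453, 1.03 and 0.387 in WT. Sema5b was barely detected, with 1 fragment in total in Zeb1Prx1 and 8 in WT, 7 of them in replicate 1.

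Ligand and receptor pairs can be set side by side from these values. For Sema4d and Plxnb1 the ligand was lower (25.1 against 41.5 FPKM in the mean of Zeb1Prx1 and WT) and the receptor higher (1.43 against 0.279), and in each mutant library the ligand gene still had the higher FPKM. For Sema3f and Nrp2 the ligand mean was higher (8.39 against 3.65 FPKM) and the receptor mean lower (38.8 against 52.0), with overlap for both. For Sema7a and Plxnc1, ligand and receptor were both lower in the mean, and the ligand ratio was 0.927 without WT replicate 1. Both were also lower in the mean for Sema4c (5.19 against 5.74 FPKM) and Plxnb2 (74.1 against 105), with overlap. The same held for Sema6d (0.673 against 1.08 FPKM, with overlap) and Plxna1 (23.3 against 42.1). Plxnb1 and Sema7a stayed under the filter. Plxnb2, which binds class 4 semaphorins, can be set beside Sema4d as well, and there both were lower in the mean.

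Other genes of the pathway were read from a list. Of its 38 co-receptors, further ligands, proteases and intracellular mediators, 32 were tested and limma called 0 in either direction (smallest adjusted p = 0.275); 21 log2 changes were below 0 and 11 above, with a median of -0.10. The genotypes did not overlap for 2 genes on the lower and 2 on the higher side, where the shares of all tested genes were 11.8% and 12.6%. L1cam, an adhesion molecule that binds Nrp1 in Sema3a reception, had 1.91, 1.00 and 1.497 FPKM in Zeb1Prx1 and 3.56, 3.44 and 2.19 FPKM in WT (log2 change -0.72, SE 0.22). Adam17, a sheddase of membrane proteins, had 25.9, 23.2 and 19.6 FPKM in Zeb1Prx1 and 28.4, 31.2 and 31.5 in WT (log2 change -0.40, SE 0.15). The higher side held Rhod, a small GTPase that binds plexins, and the kinase Cdk5, which phosphorylates collapsin response mediators. Rhod had 16.7, 29.7 and 24.0 FPKM in Zeb1Prx1 against 15.9, 11.6 and 11.4 in WT (log2 change 0.79, SE 0.24). The log2 change of Cdk5 was 0.39 (SE 0.19). Rhod and Cdk5 are 1714 and 2168 bases long, L1cam and Adam17 7347 and 7154. Of all tested genes, 22.9% under 2 kb and 16.0% of 2 to 4 kb were higher without overlap. Over 7 kb 23.3% were lower. The part of gene length in these pathway genes was not tested. The plexin A1 partners Trem2 and Tyrobp overlapped: Trem2 had 67.2, 133 and 54.7 FPKM in Zeb1Prx1 against 77.9, 79.0 and 81.7 in WT, and Tyrobp 222, 558 and 254 against 267, 294 and 306. The Sema4d receptor of lymphocytes, Cd72, also overlapped (66.2, 129 and 39.4 against 82.5, 98.2 and 117 FPKM), and Itgb1, the integrin subunit that binds Sema7a, had 224 to 259 FPKM in Zeb1Prx1 and 219 to 341 in WT.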

How the data were processed

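RNA-seq libraries of 6 samples, 3 Zeb1Prx1 and 3 WT, were grouped by their titles. The authors deposited 1 table of FPKM per gene, beside gene lengths and coordinates per the file headers, on mm10 per the submitters' processing notes. No source used here gives the aligner, the counter or the use of strand. Multiplied by gene length, 127408 of 127408 non-zero FPKM values were whole multiples of a step fixed within each library (relative tolerance 1e-06), which gave fragment numbers; floors cover counting error only. Median-of-ratios factors of the deposited FPKM were 1.01 in each library, so the deposited values were already level on that scale.

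Genes needed 1 FPKM in 3 of 6 libraries (12534 genes). Limma (3.58.1, R 4.3.3) was fitted to log2(FPKM + 1) with an intensity trend, a scale that understates changes of low genes, adjusted over all tested genes at 0.05, and tested on simulated data. All 31 genes were named, with values per library where genotypes did not overlap or levels were highest; the pathway rule took genes without overlap and with the smallest p. Members and lists were chosen with earlier results of these data known. Alternatives were pseudocounts 0.1 and 0.5, no filter, 2 scalings, a replicate block, library weights, voom on recovered fragments, a macrophage covariate, a removed length trend and leaving out each library. In GENCODE M21, 7 of the 31 genes share exonic bases with another gene, at most 10.7%.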

Additional observations from a re-analysis of the deposited data

How the results depend on the processing

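Members called stayed at 0 under all alternatives except library weights, which called 447 of all genes and 3 of the 17 (Nrp1, Plxna1 and Plxnc1, limma adjusted p = 0.0497, 0.0498 and 0.0487); these weights were 0.226 for Zeb1Prx1 replicate 2 and 2.82 for replicate 3. Leaving out each library gave 0 to 1 genes called in all and 0 to 0 of the members. At an unadjusted p under 0.05 limma counted 1897 of all genes. The median log2 change of the tested members, -0.37, ran from -0.58 to -0.16 under the alternatives and from -0.53 to -0.23 without each library. Log2 changes below 0 numbered 13 of 17, 12 to 14 without each library, and 21 of 31 with no filter, which tests more genes. Of 269 log2 changes of single genes under an alternative, 262 kept direction and side of the threshold. Part of this was fixed in advance. Dropping the filter or adding the replicate block leaves each log2 change as it was. Median-of-ratios scaling, with a factor of 1.01 in each library, hardly moves it. Sema4a, at 0.09, turned to -0.0695 with an equal FPKM sum and -0.0323 with library weights, was 0.46 with the macrophage covariate, and ran from -0.11 (Zeb1Prx1 replicate 2 left out) to 0.28 (WT replicate 3 left out) over the single libraries; the cause was not tested. An equal FPKM sum moved the median of all genes from 0.02 to -0.12. With the replicate block, 0 members were called and their median was -0.37, which this block cannot change. Same-numbered libraries deviated with correlations of 0.03, -0.41 and 0.08, and libraries of unlike number with -0.48 to 0.46. With 3 libraries per genotype these values cannot show whether the numbers pair samples. Sema6d dropped below the filter when Zeb1Prx1 replicate 1, WT replicate 2 or WT replicate 3 was left out. Depth limits the 14 genes under the filter, where down to 0 fragments were recovered per library.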
